A study of Homo sapiens with 12 samples.

Results

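The genes described here are the collagens, laminins and integrins of cerebral organoids (COs), together with *FN1* and *SPARC*. They were chosen by symbol alone, as every gene named COL, LAM or ITG with a chain or subunit number, plus *FN1* and *SPARC*. The rule found 44 genes among the 10976 in the deposited values, of which 25 were collagens, 5 laminin chains and 10 integrin subunits. It also took in *ITGB1BP1* and *ITGB3BP*, which are not integrin subunits. WT COs came from H1, an established human line of embryonic stem cells (ESCs), and KO COs from KO#2 and KO#10. Each KO line is a single H1 clone in which *c-JUN* was targeted by CRISPR-Cas9. Total RNA was sequenced at day 12 and at day 24, in 2 libraries for each line and day and so in 12 libraries in all, with 3 to 4 COs pooled in each library. All lines went through the same unguided protocol, in which day 12 preceded and day 24 followed embedding in Matrigel, a basement membrane extract that is itself rich in laminin and collagen IV protein. The labels do not say whether replicates came from separate cultures, so that *p*-values measure only the spread between these libraries.

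Collagens are trimers of alpha chains, which form interstitial fibrils (collagens I, II, III, V and XI), beaded filaments (collagen VI) or the sheet-like network of basement membranes (collagen IV). Laminins are trimers of an alpha, a beta and a gamma chain, and assemble the basement membrane on which neuroepithelial cells rest. Integrins are dimers of an alpha and a beta subunit that bind these proteins and fibronectin at the cell surface and connect them to the cytoskeleton. In the developing brain, laminin and collagen IV line the pial surface and the vessels, while interstitial collagens come mainly from meningeal and other mesenchymal cells.

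The deposited value is a whole-number score per gene. It is not a read count, since the median was 17 in all libraries and the highest value was also shared, and the depth of the libraries is unknown. Values are compared between libraries for 1 gene, not between genes, because their relation to transcript length is not given. *JUN*, the targeted gene, had higher and not lower values in every library with a KO label. At day 24 its values were 13 and 15 (WT), 39 and 39 (KO#2) and 29 and 32 (KO#10), and at day 12 they were 4 and 8, 19 and 18, and 14 and 13. WT and KO therefore stand for the libraries so labelled, and every direction rests on these labels. A value per gene cannot show whether the edit is present. Markers of neural progenitors were present in all libraries, with 8 of 8 listed genes in the data. Their summed value was 551 to 678 in WT and 794 to 931 in KO at day 12, and 562 to 730 and 1053 to 1145 at day 24. The sum was thus higher in every KO library, but this did not hold for each gene. *VIM* was the largest part of it at day 24, with 316 and 354 (WT), 666 and 666 (KO#2) and 748 and 550 (KO#10). *SOX2* and *FABP7* overlapped between the genotypes on both days.

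At day 24 the library KO#10 replicate 1 stood apart from the other KO libraries. Of 35 genes of the group that were tested at day 24, 10 had a value (plus 1) at least 2-fold above that of each of the 3 other KO libraries, against 2.75% of all genes tested. The corresponding number was 0 of 35 for KO#2 replicate 1 (0.538% overall), for KO#2 replicate 2 (0.0215%) and for KO#10 replicate 2 (0.0215%). The sum of the mesenchyme list moved in the same way, though not each of its genes. Of its 9 genes 8 were in the data. Their summed value at day 24 was 1404 and 1197 in WT, 91 and 76 in KO#2, 1534 in KO#10 replicate 1 and 112 in KO#10 replicate 2. Most of the high sums came from *LUM* (1009 and 903 in WT, 822 in KO#10 replicate 1) and *DCN* (302 and 200, and 604). In KO#10 replicate 1, *PDGFRA*, *PDGFRB* and *PRRX1* were above both WT libraries. *ACTA2* (14, against 44 and 27 in WT), *THY1* and *TAGLN* were below both. No gene of this list was at 0 in a library of day 24, and at day 12 the sum was between 48 and 59 in all libraries, with *PRRX1* at 0 throughout. The list of endoderm and yolk sac (6 of 10 genes in the data) summed to 6510 and 6654 (WT), 90 and 36 (KO#2) and 1162 and 33 (KO#10) at day 24, with *APOA2*, *APOB* and *SERPINA1* at 0 in KO#2 replicate 2 and KO#10 replicate 2, *APOA1* at 0 in the former and *AFP* at 0 in the latter. Sums of most lists of other cell types also separated the genotypes at day 24. They were 406 to 814 (WT) against 25 to 44 (KO) for the pluripotent list, with all 7 genes in the data. They were 674 to 907 against 46 to 257 for epithelium and surface ectoderm (7 of 7), and 163 to 327 against 409 to 1997 for the neuron list (8 of 8). The KO values nearest WT in the latter lists, 257 and 409, were those of KO#10 replicate 1. The neural crest list (3 of 5 genes in the data) overlapped, with 37 to 58 (WT) against 35 to 82 (KO). The pluripotent list was lower in every KO library at day 12 too, with 746 to 939 (WT) against 427 to 486 (KO). So were epithelium and surface ectoderm (340 to 356 against 190 to 307) and endothelium (18 to 24 against 11 to 16). The endothelium list, with 2 of 7 genes in the data, was 51 to 54 against 10 to 29 at day 24. Neural crest was higher in every KO library at day 12 (74 against 87 to 111). The neuron, mesenchyme and endoderm lists overlapped on that day. The part of these cell types in the results below was not tested. In RNA from whole COs, fewer cells of a type and less RNA per cell cannot be told apart. Results at day 24 that rest on this library are given with and without it.

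**Figure D1:**
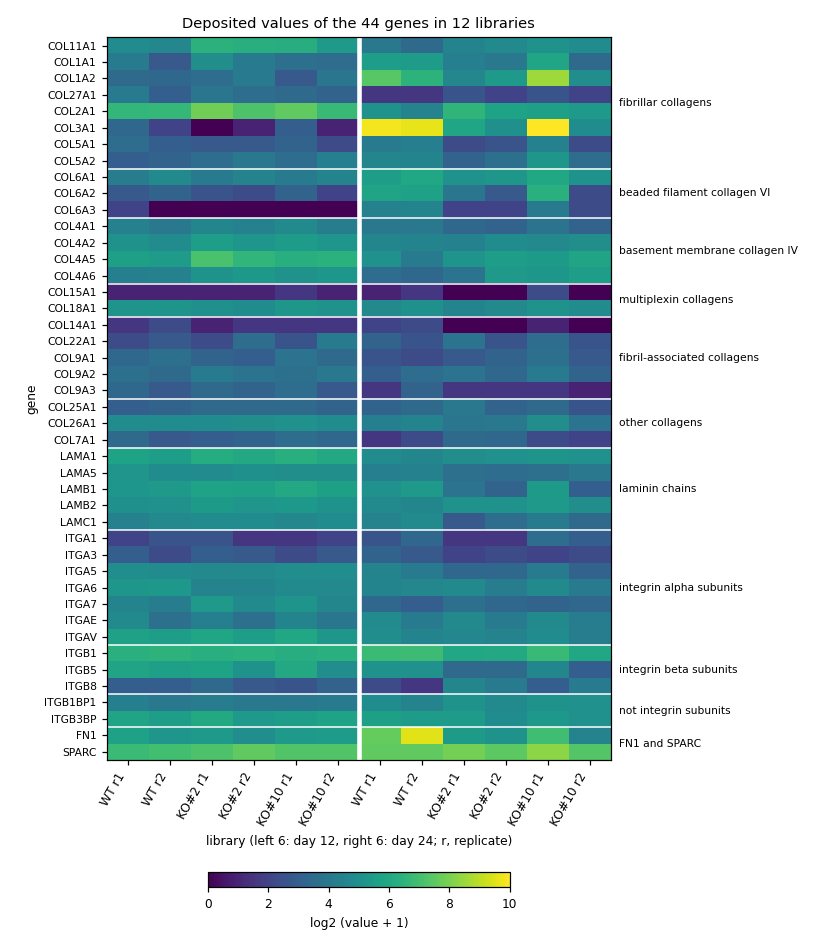
Values of the 44 genes (rows, by family) in each of the 12 libraries (columns, day 12 at left and day 24 at right), as log2 (value + 1) in colour. The interstitial collagens *COL3A1* and *COL1A2* are bright at day 24 in both WT libraries and in KO#10 replicate 1, where *COL3A1* reached 903, 821 and 1009, and are darker in the other 3 KO libraries.

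To ask which matrix genes differed between the genotypes, KO (4 libraries) was compared with WT (2 libraries) on each day with limma on log2 (value + 1). A gene was tested if its value was at least 10 in at least 2 libraries, and was called at a Benjamini-Hochberg adjusted *p* (over all genes tested) under 0.05 together with a 2-fold or larger change. For low values such fold changes are too small. At day 24, 2 of the 35 genes tested were called higher in KO (4.22% of 9289 genes overall), namely *ITGB8* and *COL11A1*. The 1 gene called lower was *FN1* (3.79% overall). The median log2 fold change was −0.26 over the 35 genes and 0.01 over all genes. At day 12 no gene of the group was called among 35 tested (0.0225% of 8885 genes overall higher and 0.0675% lower). Without adjustment, 10 of them had *p* under 0.05 in limma and were higher in KO (5.95% of all genes tested), and 1 was lower (5.08%). The median log2 fold change at day 12 was 0.21 over the group and 0.00 over all genes.

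KO and WT values did not overlap for 15 of the 35 genes at day 24. Of these, 7 were higher in KO (22.2% of all genes tested) and 8 lower (21.8%), shares near those over all genes. At day 12, 11 of 35 genes were higher in every KO than in every WT library (8.23% overall) and 1 was lower (8.34% overall). The 11 genes were *COL2A1*, *COL11A1*, *COL5A2*, *COL4A2*, *COL4A5*, *COL4A6*, *LAMA1*, *LAMB1*, *LAMB2*, *ITGA7* and *SPARC*. Their log2 fold changes lay between 0.26 (*LAMB2*) and 1.35 (*COL11A1*), and their adjusted *p* in limma between 0.102 and 0.568, so that none was called. Names of these 11 genes were set down after their values were seen.

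Without KO#10 replicate 1, 12 of 34 genes of the group were called lower in KO at day 24 (6.8% of 9180 genes overall) and 1 was called higher (7.86% overall). The 12 were *COL1A1*, *COL1A2*, *COL3A1*, *COL5A1*, *COL5A2*, *COL6A2*, *COL6A3*, *FN1*, *LAMB1*, *LAMC1*, *ITGA5* and *ITGB5*, and the 1 called higher was *ITGB8*. Of these, *COL5A1*, *COL6A3* and *ITGA5* were under 10 in all 3 remaining KO libraries and *COL6A2* and *LAMB1* in all but 1, so that these 5 passed the filter through WT and had to differ. All 12 had higher values in KO#10 replicate 1 than in each of the other 3 KO libraries. That library was set apart by the values of this same group, so that leaving it out had to lower KO for these genes. Counts, fold changes and adjusted *p* without it, here and below, therefore describe the data and are no independent evidence of a difference. *COL11A1* was no longer called because its fold change fell just under 2-fold (log2 0.98, adjusted *p* = 0.0197).

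**Figure D2:**
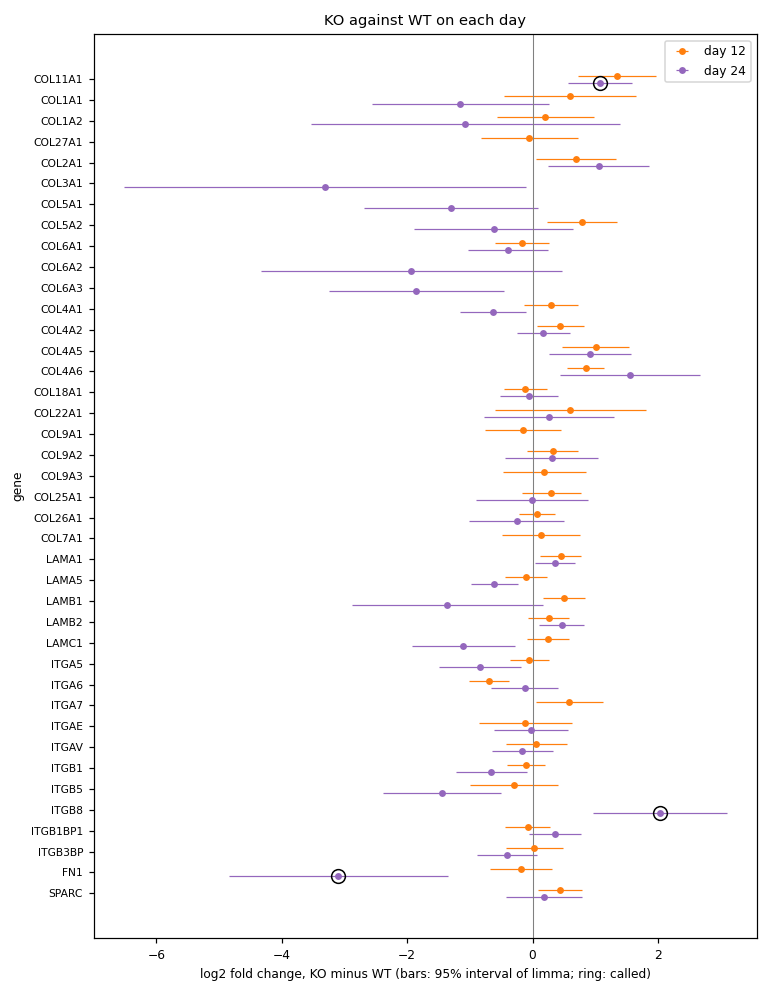
Log2 fold change of KO minus WT (x axis) for each gene tested (y axis, by family) at day 12 (orange) and day 24 (purple), with 95% intervals of limma and rings around called genes. The rings mark *ITGB8* at 2.03, *COL11A1* at 1.08 and *FN1* at −3.10, all at day 24, and the intervals of the interstitial collagens are wide.

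Among the collagens of interstitial fibrils, *COL3A1* encodes the single chain of collagen III, a collagen of vessels, skin and meninges. Its values at day 12 were 9 and 3 (WT), 0 and 1 (KO#2) and 7 and 1 (KO#10). At day 24 they were 903 and 821 (WT), 60 and 31 (KO#2) and 1009 and 28 (KO#10). Both WT libraries and KO#10 replicate 1 were thus at 821 or above, and the other 3 KO libraries were at 60 or lower. The log2 fold change of KO against WT at day 24 was −3.31 (SE 1.36, adjusted *p* = 0.124), and without KO#10 replicate 1 it was −4.49 (SE 0.33, adjusted *p* = 0.00284).

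Collagen I, the main fibril of connective tissue, is built from *COL1A1* and *COL1A2* chains. *COL1A2* was 167 and 88 (WT), 24 and 40 (KO#2) and 370 and 29 (KO#10) at day 24. *COL1A1* was 48 and 45 (WT), 19 and 15 (KO#2) and 58 and 10 (KO#10). For both chains KO#10 replicate 1 was the highest of the 6 libraries and the other 3 KO libraries were the lowest. The log2 fold changes were −1.07 (SE 1.05) and −1.15 (SE 0.60), with adjusted *p* = 0.476 and 0.198 in limma, and without KO#10 replicate 1 they were −1.96 and −1.64 (adjusted *p* = 0.0114 and 0.00979). At day 12 *COL1A2* was between 6 and 16 and *COL1A1* between 6 and 30 in the 6 libraries, and the genotypes overlapped.

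*COL5A1* and *COL5A2*, chains of collagen V, which starts and limits the growth of collagen I fibrils, had the same order of libraries. *COL5A1* at day 24 was 16 and 19 (WT), 4 and 5 (KO#2) and 20 and 4 (KO#10). *COL5A2* was 23 and 22 (WT), 8 and 12 (KO#2) and 38 and 11 (KO#10). The log2 fold changes at day 24 were −1.30 (SE 0.59) and −0.62 (SE 0.54), with adjusted *p* = 0.152 and 0.423 in limma. Without KO#10 replicate 1 they were −1.80 and −1.07 (adjusted *p* = 0.00456 and 0.0136). *COL5A2* lies beside *COL3A1* on chromosome 2 (189031898 to 189225312 and 188974373 to 189012746, in coordinates compatible with GRCh38), on the opposite strand. At day 12 *COL5A2* was 7 and 8 in WT, and 11, 15, 11 and 19 in KO, so that every KO library was above WT.

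Collagen VI forms beaded filaments around cells from the chains of *COL6A1*, *COL6A2* and *COL6A3*. *COL6A3* was between 0 and 3 in all libraries of day 12. At day 24 it was 20 and 22 (WT), 3 and 3 (KO#2) and 16 and 4 (KO#10), and the genotypes did not overlap. It could be tested at day 24 through both WT libraries and 1 KO library, and its log2 fold change was −1.86 (SE 0.59, adjusted *p* = 0.0709). *COL6A2* was 56 and 52 (WT), 14 and 6 (KO#2) and 81 and 4 (KO#10) (log2 fold change −1.93, SE 1.02, adjusted *p* = 0.206). *COL6A1* covered a narrower range, with 48 and 61 (WT), 34 and 38 (KO#2) and 63 and 34 (KO#10). Without KO#10 replicate 1, the log2 fold changes were −2.35 for *COL6A3* (adjusted *p* = 0.0033), −2.77 for *COL6A2* (adjusted *p* = 0.0107) and −0.60 for *COL6A1* (adjusted *p* = 0.0306, under 2-fold).

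*FN1* encodes fibronectin, a glycoprotein that is assembled into fibrils by integrin α5β1. Its values at day 12 were 52 and 36 (WT), 40 and 29 (KO#2) and 40 and 45 (KO#10). At day 24 they were 198 and 747 (WT), 43 and 34 (KO#2) and 121 and 21 (KO#10). Every KO library was below both WT libraries at day 24, KO#10 replicate 1 included, and the WT replicates themselves were far apart. The log2 fold change was −3.10 (SE 0.74, adjusted *p* = 0.0389, limma). The call was kept without KO#10 replicate 1 (log2 −3.58, adjusted *p* = 0.0109) and was lost when any other of the 6 libraries was left out, where the adjusted *p* reached 0.308 without WT replicate 2.

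*SPARC* encodes a secreted protein that binds collagens, including collagen IV. Its values were 112 and 124 (WT) against 146, 186, 154 and 154 (KO) at day 12. The values of day 24 were 187 and 187 (WT), 237 and 178 (KO#2) and 302 and 158 (KO#10), so that the genotypes overlapped. KO minus WT was 0.43 on the log2 scale (SE 0.15, adjusted *p* = 0.349) at day 12 and 0.18 (SE 0.26, adjusted *p* = 0.63) at day 24. Without KO#10 replicate 1 the difference at day 24 was 0.01 (adjusted *p* = 0.976 in limma).

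**Figure D3:**
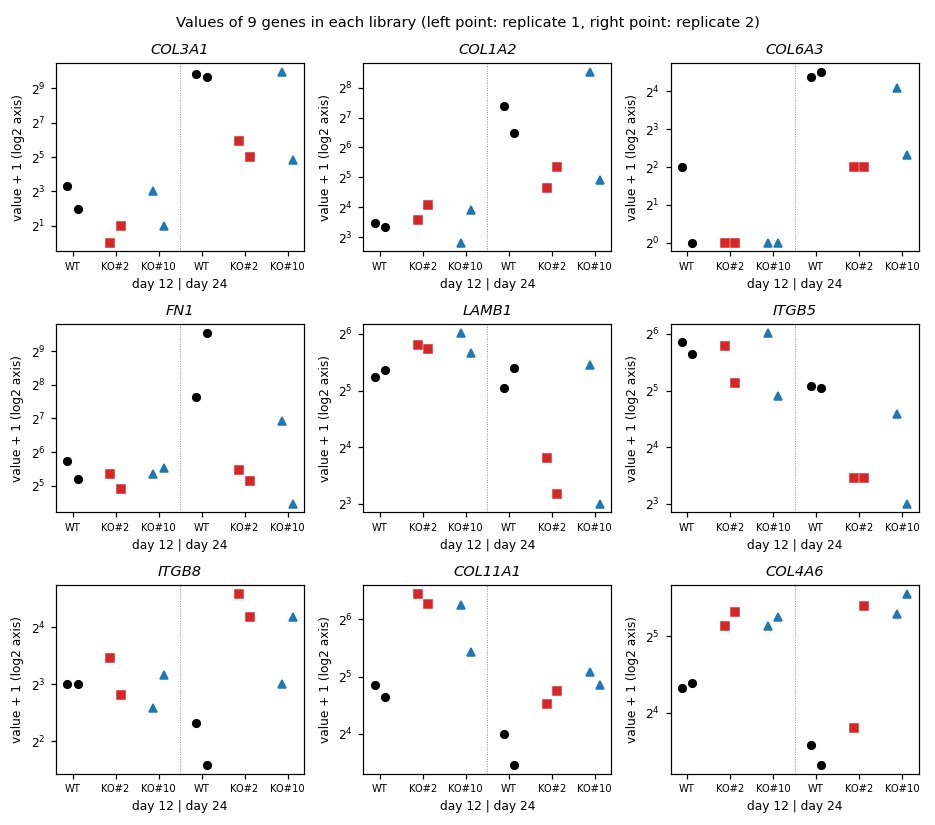
Value plus 1 (y axis, log2 scale) of 9 genes in each library, by line and day (x axis), with replicate 1 at left and replicate 2 at right of each pair. *COL3A1*, *COL1A2*, *COL6A3*, *LAMB1* and *ITGB5* show KO#10 replicate 1 above the other 3 KO libraries at day 24, *FN1* shows all KO libraries below WT, and *ITGB8*, *COL11A1* and *COL4A6* show them above WT.

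The chains of collagen IV are encoded by gene pairs that face away from each other and share a promoter region. *COL4A1* and *COL4A2* lie head to head on chromosome 13, and *COL4A5* and *COL4A6* on chromosome X. The windows from 250 bases before to 50 bases after the start sites (RefSeq, GRCh38.p14) overlapped by 226 bases in the first pair and by 121 bases in the second. They are shown because the pairs are described side by side. Capitals mark the shared bases, which each gene reads on its own strand. The windows are chr13:110307108-110307407 (minus strand, *COL4A1*), chr13:110307034-110307333 (plus strand, *COL4A2*), chrX:108439588-108439887 (plus strand, *COL4A5*) and chrX:108439409-108439708 (minus strand, *COL4A6*).
COL4A1: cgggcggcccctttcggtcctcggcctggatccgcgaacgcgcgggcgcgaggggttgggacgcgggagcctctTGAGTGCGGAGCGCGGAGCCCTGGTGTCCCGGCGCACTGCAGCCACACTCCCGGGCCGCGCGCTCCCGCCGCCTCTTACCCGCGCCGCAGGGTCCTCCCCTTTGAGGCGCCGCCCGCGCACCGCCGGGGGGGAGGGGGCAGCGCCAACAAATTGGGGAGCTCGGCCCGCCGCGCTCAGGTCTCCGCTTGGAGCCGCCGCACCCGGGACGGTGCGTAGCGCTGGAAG
COL4A2: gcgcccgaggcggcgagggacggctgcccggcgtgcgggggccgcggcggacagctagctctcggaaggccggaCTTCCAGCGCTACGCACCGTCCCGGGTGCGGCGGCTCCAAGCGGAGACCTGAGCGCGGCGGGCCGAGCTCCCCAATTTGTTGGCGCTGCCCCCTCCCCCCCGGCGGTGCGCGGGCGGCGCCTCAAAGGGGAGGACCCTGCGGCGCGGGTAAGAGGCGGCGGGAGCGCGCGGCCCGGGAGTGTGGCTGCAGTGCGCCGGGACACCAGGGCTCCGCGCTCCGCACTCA
COL4A5: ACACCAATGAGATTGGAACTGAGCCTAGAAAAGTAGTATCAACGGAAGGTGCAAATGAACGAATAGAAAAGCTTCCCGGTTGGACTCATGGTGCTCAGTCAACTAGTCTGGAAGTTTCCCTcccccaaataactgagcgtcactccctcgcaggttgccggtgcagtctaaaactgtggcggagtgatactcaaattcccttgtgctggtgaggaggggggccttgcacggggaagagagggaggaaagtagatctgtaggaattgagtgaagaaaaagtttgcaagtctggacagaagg
COL4A6: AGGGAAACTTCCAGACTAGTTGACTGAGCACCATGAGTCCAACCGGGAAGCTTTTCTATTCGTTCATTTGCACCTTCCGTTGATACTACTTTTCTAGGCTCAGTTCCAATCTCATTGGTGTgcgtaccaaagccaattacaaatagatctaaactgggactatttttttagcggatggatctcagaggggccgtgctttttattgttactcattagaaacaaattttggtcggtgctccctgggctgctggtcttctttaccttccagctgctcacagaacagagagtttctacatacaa

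*COL4A1* and *COL4A2* encode the chains of the collagen IV network that most basement membranes hold. *COL4A1* was 20 and 15 (WT) against 23, 20, 26 and 18 (KO) at day 12, where the genotypes overlapped. The values of day 24 were 15 and 15 (WT), 9 and 8 (KO#2) and 13 and 8 (KO#10), so that every KO library was below WT. *COL4A2* was 23 and 22 (WT), 20 and 28 (KO#2) and 25 and 30 (KO#10) at day 24. The partners thus differed in the order of their libraries at day 24, with log2 fold changes of −0.63 (SE 0.22, adjusted *p* = 0.089) for *COL4A1* and 0.17 (SE 0.18, adjusted *p* = 0.505) for *COL4A2*. At day 12 *COL4A2* was 33 and 27 (WT) against 47, 37, 44 and 37 (KO), every KO library above WT.

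*COL4A5* and *COL4A6* encode chains that occur together in some basement membranes. *COL4A5* at day 12 was 50 and 44 (WT), 138 and 94 (KO#2) and 77 and 83 (KO#10). The values of day 24 were 32 and 17 (WT), 35 and 48 (KO#2) and 43 and 56 (KO#10). *COL4A6* at day 12 was 19 and 20 (WT), 34 and 39 (KO#2) and 34 and 37 (KO#10). On day 24 they were 11 and 9 (WT), 13 and 41 (KO#2) and 38 and 46 (KO#10). Both genes were higher in every KO library than in WT on both days. The log2 fold changes of *COL4A5* were 1.01 (SE 0.23, adjusted *p* = 0.17) at day 12 and 0.91 (SE 0.28, adjusted *p* = 0.0648) at day 24. Those of *COL4A6* were 0.85 (SE 0.13, adjusted *p* = 0.102) and 1.56 (SE 0.47, adjusted *p* = 0.0645). In limma *COL4A6* was called at day 24 without KO#2 replicate 1, its lowest KO library, and in the fit of all 12 libraries (adjusted *p* = 0.0107).

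Of the laminins, *LAMA1*, *LAMB1* and *LAMC1* encode the chains of laminin-111, the laminin of the early embryo. *LAMA1* was 54 and 48 (WT) against 72, 65, 78 and 65 (KO) at day 12. At day 24 it was 27 and 23 (WT), 30 and 32 (KO#2) and 35 and 32 (KO#10). KO was above WT on both days, by a log2 fold change of 0.45 (SE 0.14, adjusted *p* = 0.295) and 0.36 (SE 0.13, adjusted *p* = 0.0994).

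Its partner chains were not ordered in this way at day 24. *LAMB1* was 32 and 41 (WT), 13 and 8 (KO#2) and 43 and 7 (KO#10). *LAMC1* was 21 and 26 (WT), 6 and 11 (KO#2) and 17 and 10 (KO#10). *LAMC1* was lower in every KO library than in WT, while *LAMB1* in KO#10 replicate 1 was above both WT libraries. The log2 fold changes were −1.36 (SE 0.65, adjusted *p* = 0.168) for *LAMB1* and −1.10 (SE 0.35, adjusted *p* = 0.0686) for *LAMC1*, and −1.89 (adjusted *p* = 0.00812) and −1.32 (adjusted *p* = 0.0181) without KO#10 replicate 1. At day 12 *LAMB1* was 37 and 40 (WT) against 55, 52, 64 and 50 (KO), and *LAMC1* was between 20 and 28 in all 6 libraries.

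*LAMA5*, the alpha chain of laminins in mature epithelial and vessel basement membranes, was 19 and 20 (WT), 12 and 11 (KO#2) and 12 and 15 (KO#10) at day 24. All 4 KO libraries were below WT, with KO#10 replicate 1 among them. Its log2 fold change was −0.61 (SE 0.16, adjusted *p* = 0.0474), past the adjusted threshold but under 2-fold. At day 12 *LAMA5* was between 27 and 36, and the genotypes overlapped. *LAMB2*, a beta chain of later basement membranes, was 26 and 23 (WT) against 34, 33, 40 and 30 (KO) at day 24 (log2 fold change 0.46, SE 0.15, adjusted *p* = 0.0746).

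*COL2A1* and *COL11A1* encode chains of the heterotypic fibrils of collagens II and XI, which are best known from cartilage and are also made by early neuroepithelium and notochord. *COL11A1* at day 12 was 28 and 24 (WT), 86 and 76 (KO#2) and 75 and 42 (KO#10). At day 24 it was 15 and 10 (WT), 22 and 26 (KO#2) and 33 and 28 (KO#10). Every KO library was above WT on both days. The log2 fold change was 1.35 (SE 0.27) at day 12 and 1.08 (SE 0.21) at day 24, with adjusted *p* = 0.129 and 0.0277 in limma. With the replicate number as a block, which paired the libraries at day 12, *COL11A1* was the 1 gene of the group called higher at that day (adjusted *p* = 0.0444, 0.405% of all genes called higher). The call at day 24 was lost without either WT library, KO#10 replicate 1 or 2, or KO#2 replicate 2, and the adjusted *p* reached 0.254 without WT replicate 2.

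*COL2A1* was 97 and 101 (WT), 229 and 146 (KO#2) and 187 and 107 (KO#10) at day 12. At day 24 it was 34 and 21 (WT), 93 and 54 (KO#2) and 51 and 40 (KO#10). It was again higher in every KO than in every WT library, with log2 fold changes of 0.70 (SE 0.28, adjusted *p* = 0.404) and 1.05 (SE 0.34, adjusted *p* = 0.0729).

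The other collagens were low or overlapped between the genotypes. *COL18A1*, a basement membrane collagen that releases endostatin, was between 22 and 38 in all 12 libraries. *COL26A1* was between 28 and 32 at day 12 and between 13 and 30 at day 24. The collagen IX chains, which decorate fibrils of collagen II, had values from 4 to 13 (*COL9A1*), 7 to 16 (*COL9A2*) and 1 to 11 (*COL9A3*) over the 12 libraries. *COL22A1* was between 4 and 17, *COL25A1* between 5 and 15, *COL27A1* between 2 and 17, and *COL7A1*, the collagen of anchoring fibrils below epithelia, between 2 and 11. *COL14A1* and *COL15A1* were at 4 or lower in every library. At day 24, 6 of the 25 collagens did not pass the filter on low values, and at day 12 also 6 did not.

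Among the integrins, *ITGB8* encodes the β8 subunit, which pairs with αV on neuroepithelial cells and astrocytes and activates latent TGF-β. Its values at day 12 were 7 and 7 (WT), 10 and 6 (KO#2) and 5 and 8 (KO#10). At day 24 they were 4 and 2 (WT), 23 and 17 (KO#2) and 7 and 17 (KO#10). All KO libraries were above WT at day 24, and KO#10 replicate 1 was the lowest of them. *ITGB8* passed the filter at day 24 only through KO libraries, so that it had to differ. Its log2 fold change was 2.03 (SE 0.45, adjusted *p* = 0.0343, limma), and the adjusted *p* was 0.00539 without KO#10 replicate 1. The call was lost when any other library was left out, where the adjusted *p* reached 0.284 without WT replicate 2.

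*ITGB5*, the β5 subunit, which pairs with αV to bind vitronectin, was lower in KO at day 24 without overlap. It was 33 and 32 (WT), 10 and 10 (KO#2) and 23 and 7 (KO#10). Its log2 fold change was −1.44 (SE 0.40, adjusted *p* = 0.0524), and without KO#10 replicate 1 it was −1.76 (SE 0.19, adjusted *p* = 0.00456). At day 12 *ITGB5* was 57 and 49 (WT) against 54, 34, 64 and 29 (KO), and replicate 1 was above replicate 2 in each line. *ITGAV*, the αV partner of both subunits, was 29 and 22 (WT), 24 and 21 (KO#2) and 28 and 18 (KO#10) at day 24 (log2 fold change −0.16, SE 0.20, 95% interval −0.65 to 0.32).

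*ITGA5* and *ITGB1* encode α5β1, the main fibronectin receptor. *ITGA5* at day 24 was 21 and 17 (WT), 9 and 9 (KO#2) and 16 and 8 (KO#10). *ITGB1*, the beta subunit that most matrix-binding alpha subunits share, was 111 and 116 (WT), 63 and 64 (KO#2) and 107 and 61 (KO#10). For both genes KO#10 replicate 1 was just below WT and the other KO libraries were lower still. The log2 fold changes were −0.84 (SE 0.28, adjusted *p* = 0.076) and −0.66 (SE 0.24, adjusted *p* = 0.0976), and without KO#10 replicate 1 they were −1.04 (adjusted *p* = 0.00888) and −0.85 (adjusted *p* = 0.00607, under 2-fold). At day 12 *ITGA5* was between 25 and 29 and *ITGB1* between 74 and 88 in all 6 libraries.

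Laminin-binding alpha subunits were ordered differently by day. *ITGA6* at day 12 was 38 and 39 (WT), 21 and 22 (KO#2) and 26 and 25 (KO#10), the 1 gene of the group that was lower in every KO library at that day. Its replicates differed by 1 in each line. Its log2 fold change was −0.69 (SE 0.14, adjusted *p* = 0.129). At day 24 *ITGA6* was 22 and 24 (WT), 26 and 18 (KO#2) and 26 and 16 (KO#10), and the genotypes overlapped (log2 fold change −0.12, 95% interval −0.66 to 0.41). *ITGA7* was 22 and 18 (WT) against 41, 26, 35 and 23 (KO) at day 12, and was between 7 and 12 in all libraries of day 24, where it was not tested.

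*ITGA3*, another laminin-binding subunit, was between 3 and 8 in all libraries. At day 24 it was 8 and 6 (WT), 3 and 4 (KO#2) and 3 and 4 (KO#10), every KO library below WT, but it did not pass the filter. *ITGA1*, which binds collagen, was between 2 and 11. *ITGAE*, which binds E-cadherin, was between 12 and 27 with overlap on both days. *ITGB1BP1* encodes ICAP1, a regulator of β1 integrin, and *ITGB3BP* encodes a centromere protein. *ITGB1BP1* was 28 and 21 (WT) against 34, 26, 34 and 32 (KO) at day 24, and *ITGB3BP* was 50 and 45 (WT) against 45, 28, 39 and 32 (KO), and neither gene was called on either day.

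**Figure D4:**
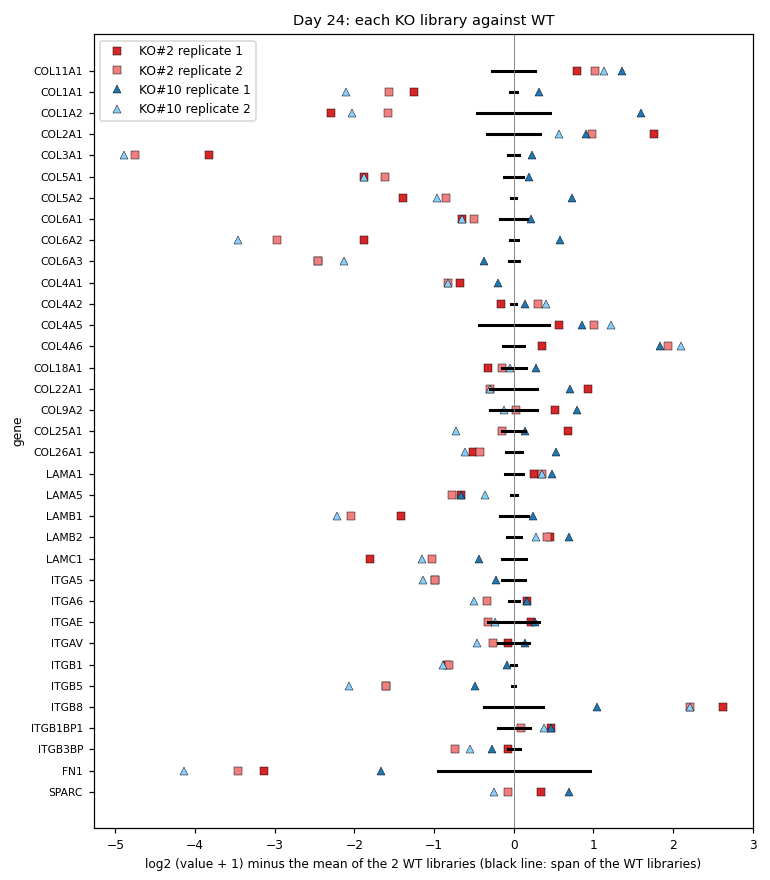
Day 24, each KO library (symbols) as log2 (value + 1) minus the mean of the 2 WT libraries (x axis) for the 35 genes tested (y axis), with the span of the WT libraries as a black line. KO#10 replicate 1 (dark blue) sits near or above 0 for *COL1A1*, *COL1A2*, *COL3A1*, *COL5A1*, *COL5A2*, *COL6A1*, *COL6A2* and *LAMB1*, where the other 3 KO libraries are well below 0, and all 4 symbols are below the line for *FN1* and above it for *ITGB8*.

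c-JUN is a subunit of AP-1, which binds the letters TGANTCA, and with ATF proteins the letters TGACGTCA. To see where these letters occur, both strands of the promoter windows of 300 bases were searched, and 32 of the 44 genes had such a window. TGANTCA was found in 7.71% of 35116 promoters in all and, in this group, in *ITGA5* alone. TGACGTCA was found in 1.85% of all promoters and, in this group, in *FN1* alone. The windows are chr12:54419217-54419516 (minus strand, *ITGA5*) and chr2:215436019-215436318 (minus strand, *FN1*). Capitals mark the match, which begins 6 bases before the start site of *ITGA5* and 183 bases before that of *FN1*.
ITGA5: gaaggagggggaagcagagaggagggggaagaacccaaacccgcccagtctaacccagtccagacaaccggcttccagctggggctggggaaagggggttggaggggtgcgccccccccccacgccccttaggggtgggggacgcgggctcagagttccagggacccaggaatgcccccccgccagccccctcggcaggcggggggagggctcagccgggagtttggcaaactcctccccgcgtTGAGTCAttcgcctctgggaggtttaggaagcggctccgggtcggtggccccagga
FN1: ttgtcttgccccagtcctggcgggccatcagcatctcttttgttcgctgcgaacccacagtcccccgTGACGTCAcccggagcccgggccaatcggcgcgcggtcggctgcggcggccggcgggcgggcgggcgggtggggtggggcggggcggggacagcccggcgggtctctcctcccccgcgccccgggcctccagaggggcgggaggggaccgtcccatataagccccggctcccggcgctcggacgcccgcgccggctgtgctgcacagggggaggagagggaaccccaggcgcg

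These matches are descriptions of the sequence only. *ITGA5* and *FN1* were among the 8 of 35 genes of the group that were lower in every KO library at day 24 (21.8% of all genes tested). Both overlapped at day 12. Whether the motifs bear on these values was not tested. The 4 collagen IV windows printed above held neither motif.

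To describe how the group changed as the COs grew, day 24 was compared with day 12 within WT and within KO, in 1 fit of all 12 libraries. In WT, 8 of 40 genes tested rose (7.17% of 9952 genes overall) and 6 fell (7.88% overall). In KO, 4 rose (5.88% overall) and 14 fell (5.59% overall). The genes that rose in WT were *COL3A1*, *COL1A2*, *COL1A1*, *COL5A2*, *COL6A1*, *COL6A2*, *COL6A3* and *FN1*, which are interstitial matrix genes. Those that rose in KO were *COL3A1*, *COL1A2*, *COL6A1* and *COL6A3*. Without KO#10 replicate 1 of day 24 the KO counts were again 4 higher (5.97% overall), now with *ITGB8* and without *COL6A1*, and 15 lower (5.56% overall), with *COL26A1* added. In WT the log2 fold change of *COL3A1* was 7.09 (SE 1.37, adjusted *p* = 0.0037) and in KO it was 5.19 (SE 0.97, adjusted *p* = 0.00165), or 4.01 without KO#10 replicate 1. For *COL1A2* and *COL6A1* in KO it was 2.26 and 1.06, and 1.37 and 0.85 without that library. *FN1* rose by a log2 of 3.12 in WT (SE 0.67, adjusted *p* = 0.00621), while the value for KO was 0.21 (SE 0.48, adjusted *p* = 0.752). *COL3A1*, *COL6A2*, *COL6A3* and *COL5A1* were under 10 in nearly all libraries of day 12 and passed the filter through day 24.

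Of the laminins, 4 of 5 fell in KO between the days (5.59% of all genes tested). Their log2 fold changes were −1.09 for *LAMA1*, −1.18 for *LAMA5*, −1.95 for *LAMB1* and −1.29 for *LAMC1*. In WT *LAMA1* fell from 54 and 48 to 27 and 23 (adjusted *p* = 0.00113). The values for *LAMB1* and *LAMC1* in WT were −0.08 (95% interval −1.33 to 1.17) and 0.06 (95% interval −0.63 to 0.75). Of 8 integrins tested, 4 fell in KO, against the same 5.59%. These were *ITGA5*, *ITGA7*, *ITGAV* and *ITGB5*, by a log2 of −1.33, −1.60, −1.15 and −1.83. *ITGA7* also fell in WT (log2 −1.22). *COL2A1*, *COL11A1* and *COL27A1* fell in both genotypes. The log2 fold change of *COL2A1* was −1.85 in WT and −1.49 in KO, and that of *COL11A1* was −1.02 and −1.29. *COL9A1* fell in WT, and *COL9A3*, *COL4A1* and *COL4A5* fell in KO. The direction was mostly shared: 4 of 5 laminins and 6 of 8 integrins tested were negative in WT, and 5 of 5 and 6 of 8 in KO. The negative integrins were not the same genes in both. *ITGB8* was negative in WT (log2 −1.05) and positive in KO, while *ITGB1* was positive in WT (0.42) and negative in KO. Over the group the median log2 fold change was −0.30 in WT and −0.25 in KO, and over all genes it was 0.02 and 0.01. In WT *LAMA5* (log2 −0.68), *ITGAV* (−0.93) and *COL4A5* (−0.975) passed the adjusted threshold of limma but were under 2-fold. *ITGA5* (−0.54), *ITGB5* (−0.685), *COL4A1* (−0.20) and *COL9A3* (−0.69) did not pass it in WT. *COL27A1* and *COL9A3* were under 10 in all libraries of day 24, and *COL9A1* and *ITGA7* in all but 1, so that these 4 passed the filter through day 12 and had to differ.

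Whether the change between the days differed by genotype was tested as an interaction. No gene of the group was called among 40 tested (0.452% of all genes higher and 0.854% lower), and without adjustment 1 had a positive (11.3% overall) and 7 a negative interaction (10.2% overall) with *p* under 0.05 in limma. The lowest adjusted *p* were 0.0777 for *ITGB8* (log2 2.02, SE 0.55), 0.082 for *FN1* (log2 −2.91, SE 0.83) and 0.0869 for *LAMC1* (log2 −1.35, SE 0.39). Without KO#10 replicate 1 of day 24, 10 genes were called lower (5.02% overall) and 1 higher (4.23% overall), namely *COL1A1*, *COL1A2*, *COL4A1*, *COL5A1*, *COL5A2*, *COL6A2*, *FN1*, *ITGB5*, *LAMB1* and *LAMC1* lower and *ITGB8* higher. Leaving out any 1 WT library of either day lost calls in WT, and left 1 WT library on that day. The share over all genes was not counted for those fits, so that a loss particular to this group cannot be told from a general one. Over all alternatives the log2 fold change in WT lay between 6.43 and 7.75 for *COL3A1*, 2.17 and 4.08 for *FN1*, and −1.11 and −0.89 for *LAMA1*. In KO at least 16 of the 18 calls were kept whichever library was left out.

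**Figure D5:**
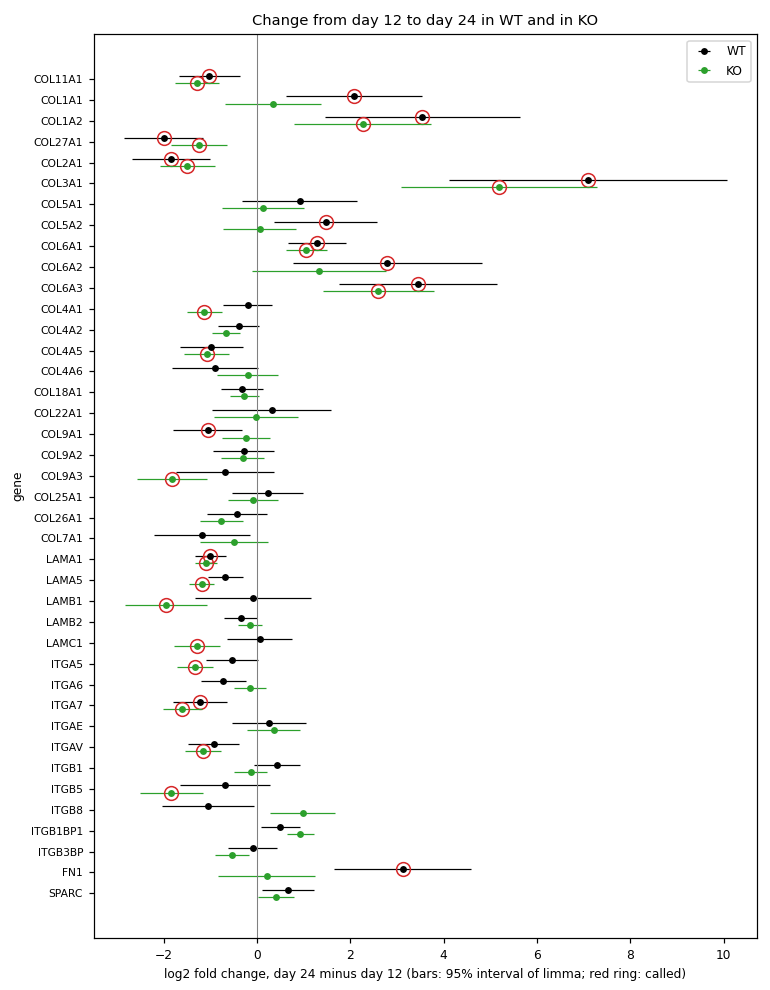
Log2 fold change of day 24 minus day 12 (x axis) for the 40 genes tested (y axis, by family), in WT (black) and KO (green), with 95% intervals of limma and red rings around called genes. The interstitial collagens and *FN1* are to the right in WT, up to 7.09 for *COL3A1*, and most laminins and integrins are to the left in both genotypes.

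The clones were compared with each other and singly with WT. Between KO#2 and KO#10 no gene of the group was called on either day, and 0 of 9289 genes overall were called at day 24 and 0 of 8885 at day 12. KO#2 alone against WT at day 24 gave 1 gene higher (4.74% overall), *ITGB8*, and 1 lower (4.26% overall), *COL6A3*. *ITGB8* was under 10 in both WT libraries and *COL6A3* in both KO#2 libraries, so that each passed the filter through other libraries and had to differ here. KO#10 alone gave 0 in either direction (0.14% overall in each). Both calls of KO#2 were lost without any 1 of the WT or KO#2 libraries, and 7 genes were called lower without KO#10 replicate 1 (4.65% overall) and 7 without KO#10 replicate 2 (4.74% overall), whose spread enters the fit of 3 groups. The comparisons share the WT libraries, and the KO#10 replicates were far apart for 10 genes as described above.

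A list of 72 other genes of matrix assembly and adhesion was set beside the group, of which 64 were in the data and 56 were tested at day 24. Of the 56, 2 were called higher in KO, against 4.22% of all genes, and 6 lower, against 3.79%. *DDR1*, a collagen receptor kinase, and *TIMP2*, an inhibitor of matrix metalloproteases, were called higher in KO. Called lower were *P4HA1*, a prolyl hydroxylase of collagen chains, *VTN* and *HAPLN1*, which encode vitronectin and a hyaluronan link protein, *FERMT2*, an activator of integrins, *SDC4*, a syndecan, and *BCAM*, a laminin receptor. *TIMP2* was 21 and 18 (WT), 42 and 42 (KO#2) and 38 and 43 (KO#10) at day 24 (log2 fold change 1.05, SE 0.13, adjusted *p* = 0.0181). *DDR1* was 52 and 35 (WT), 114 and 107 (KO#2) and 60 and 109 (KO#10). Both were higher in every KO library than in WT.

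*HAPLN1* was 105 and 266 (WT), 4 and 1 (KO#2) and 19 and 3 (KO#10) (log2 fold change −4.98, SE 0.85, adjusted *p* = 0.0218). *P4HA1* was 107 and 108 (WT), 18 and 29 (KO#2) and 50 and 34 (KO#10). *FERMT2* was 42 and 48 (WT), 11 and 14 (KO#2) and 22 and 15 (KO#10). *VTN* was 31 and 31 (WT), 3 and 0 (KO#2) and 10 and 3 (KO#10). For these 4 genes KO#10 replicate 1 was the highest KO library and stayed below both WT libraries. The same held for *SDC4*, with 37 and 38 (WT), 9 and 9 (KO#2) and 19 and 9 (KO#10), and for *BCAM*, with 27 and 39 (WT), 12 and 12 (KO#2) and 20 and 14 (KO#10). *HAPLN1*, *VTN* and *SDC4* passed the filter through WT. At day 12, 0 of 52 genes of the list were called by limma (0.0225% overall higher and 0.0675% lower). Between the days 14 of 60 rose and 2 fell in WT, against 7.17% and 7.88% of all genes, and 4 rose and 8 fell in KO, against 5.88% and 5.59%. Of the genes that rose, *LUM*, *DCN*, *POSTN*, *VTN* and *P4HA2* were under 10 in all libraries of day 12 and passed the filter through day 24. Of those that fell, *THBS1* (WT) and *TNC* (KO) were under 10 in all libraries of day 24, and *EFEMP1* (KO) in all but 1. These genes thus had to differ, so that the counts are a description only. The interaction was called for *EFEMP2* and *P4HA1*, both lower (0.854% overall).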

How the data were processed

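Total RNA of pooled COs was sequenced after depletion of ribosomal RNA. The authors deposited a whole-number score per gene, 1 file per library. The scores are not counts: the totals lie between 473637 and 483149 by normalization, so that depth, and with it counting error, is unknown. The labels name bcl2fastq, Bowtie2 and RSEM without versions, and the build as mm10, although all 10976 identifiers are human genes of GENCODE release 29 (GRCh38), and 10965 listed intervals overlap it. The normalization is not given in the sources used here. Whether counting used the strand is not given either.

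Scores were transformed as log2 (value + 1). Testing required 10 or more in 2 or more libraries of the fit and was done with limma 3.58.1 (lmFit and eBayes with trend, R 4.3.3), and *p*-values were adjusted over all genes tested. KO and WT were compared separately for the 2 days, the clones in fits of 3 groups, and the days and the interaction in 1 fit of 12 libraries. With 2 against 4 libraries an exact permutation test of 1 gene cannot go below 0.0667. At day 12, libraries that share a replicate number departed together from their group means (r across genes 0.459, 0.429 and 0.598), and the numbers, which come from the labels, were taken to pair them. Alternatives were other filters, a pseudocount of 0.1, the replicate block, each library left out, all 12 libraries in 1 fit, the clones as separate groups, no trend and an unadjusted *p*.

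The genes, lists and comparisons were chosen with earlier results of these data known. A set of genes was chosen for values in every library. It held genes called in KO against WT or for the interaction, and the 5 with the largest fold change in each direction at day 24. It also held *FN1*, *SPARC* and a fixed core of basement membrane chains and receptors. All of the set had such values for day 24, and some had a range or none for day 12. Promoters were taken from RefSeq (GRCh38.p14). Python 3.11.15 (pandas 2.3.3, numpy 2.4.6, matplotlib 3.10.9) was used for tables and figures.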

Additional observations from a re-analysis of the deposited data

Results flagged for a closer look

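In groups of 4 KO libraries, a library was marked when its gap to the nearest other exceeded Dixon's 95% critical share of the range of the group. For independent, continuous and normal values chance gives this in about 1 of 20 groups. The scores are whole numbers, often tied when low, and the groups share libraries, so that the count cannot be held against this rate. Of 88 groups, 18 were marked, and in 13 of them the library was KO#10 replicate 1 at day 24. There its values were 1009 for *COL3A1*, 370 for *COL1A2*, 81 for *COL6A2*, 63 for *COL6A1*, 16 for *COL6A3*, 20 for *COL5A1*, 38 for *COL5A2*, 30 for *COL26A1*, 43 for *LAMB1*, 16 for *ITGA5* and 107 for *ITGB1*, each the highest of the 4. The other KO libraries were between 28 and 60 for *COL3A1* and between 61 and 64 for *ITGB1*. *COL15A1* at 4 and *COL14A1* at 1 in this library stood out against 0 in the other 3.

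The remaining 5 were at low values. *COL9A3* was 1 in KO#10 replicate 2 at day 24, against 2 in the other KO libraries. At day 12, *COL3A1* was 7 and *COL15A1* was 2 in KO#10 replicate 1, *COL25A1* was 8 in KO#10 replicate 2, and *COL14A1* was 1 in KO#2 replicate 1.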

How the results depend on the processing

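For KO against WT at day 24, 2 genes of the group were called higher and 1 lower. The number higher was 1 with a minimum value of 20, 1 with the replicate block, 4 with all 12 libraries in 1 fit (with *COL2A1* and *COL4A6*), 4 without adjustment of *p*, and 0 to 2 with 1 library left out. The number lower was 2 without a filter (with *COL14A1*), 0 with the replicate block, 3 with all 12 libraries (with *ITGB5* and *LAMC1*), 0 with the clones as separate groups, 5 without adjustment, and 0 to 12 with 1 library left out. At day 12 the number higher was 0, and it was 1 with the replicate block and 2 without adjustment. For KO#2 alone, 1 was called higher (0 to 1 with 1 library left out) and 1 lower (0 with a minimum of 20, 0 with the replicate block, and 0 to 7 with 1 library left out). With a minimum of 20 and with the block the 1 gene higher was *COL2A1* in place of *ITGB8*. In WT between the days, 8 were higher (1 to 8 with 1 library left out) and 6 lower (1 to 7). The interaction had 0 in either direction, and 0 to 1 higher and 0 to 10 lower with 1 library left out. The causes were not tested, beyond the smaller number of libraries. Shares over all genes were counted for some of these settings only, and are given above. At day 24 the replicate numbers did not pair the libraries (r 0.212, −0.106 and 0.346), and for the pooled KO libraries against WT the block changed no other call. It moved no count of the days or the interaction by over 1.5 times.

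With 1 library left out, the sign of KO minus WT turned at least once for 12 of 35 genes tested at day 12, whose fold changes were up to 0.59 in size (log2) with all libraries, and for 6 of 35 at day 24, up to 0.26 in size. Among the genes chosen for values in every library, this held for *FN1*, *ITGAV* and *LAMA5* at day 12. Their log2 fold changes then lay between −0.44 and 0.0769, −0.031 and 0.20, and −0.28 and 0.071. At day 24 it held for *ITGA6*, between −0.22 and 0.0022, and *ITGAV*, between −0.35 and 0.0287. With unknown depth, low values such as those of *COL14A1*, *COL15A1* and *ITGA3* cannot show whether a gene was absent.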
